A study of Drosophila melanogaster with 9 samples.

Results

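H3K27me3 coverage of the genome was compared between males lacking both roX RNAs and wild-type males of Drosophila melanogaster. The comparison used 4 peak lists, chosen by the sample titles, of the 9 samples in the series: 2 libraries of wild-type males and 2 of roX1 roX2 double knockout males. It covered all 13922 protein-coding genes of the Release 6 gene table on chromosome arms X, 2L, 2R, 3L, 3R and 4, and 13389 windows of 10 kb. Of these, 2551 genes and 6099 windows held a peak in at least 1 of the 4 libraries and could be tested.

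The material was whole larvae of the third instar, reared at 25 °C, with chromatin fixed in 1% formaldehyde and immunoprecipitated for H3K27me3. The knockout males carried the alleles roX1[ex6] and roX2[9-4]. The control males are labelled wild type, with no strain named, and no allele or treatment besides rearing and fixation is given as shared by both groups. The labels do not say whether the replicates came from separate animals or pools, so each p-value measures the spread between libraries, which may be technical. A whole-larva sample also cannot tell fewer cells with the mark from a weaker mark in each cell.

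H3K27me3 is the trimethylation of histone H3 laid down by Polycomb repressive complex PRC2, and in flies it spreads over broad domains that hold silenced developmental genes such as the Hox genes. The roX RNAs are noncoding RNAs of the MSL complex, which binds the single male X, acetylates histone H4 there and raises transcription of X-linked genes. Without both RNAs the MSL complex is known to bind the X poorly and males rarely survive to adulthood.

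Wild-type replicates 1 and 2 had 5406 and 4784 deposited peaks, and knockout replicates 1 and 2 had 6327 and 6189. Values of the 4 libraries are given in that order throughout. The share of peaks with a −log10 q of at least 3 was 22.8%, 20.3%, 14.97% and 12.97%. The knockout lists thus held more peaks and a smaller share with such a q. Their median fold was not lower, at 1.69, 1.70, 1.70 and 1.83 over the 4 libraries. Their highest fold was lower, at 24.2, 21.4, 10.6 and 12.4. Sequencing depth is unknown, and its part in these differences was not tested. All 8 Hox genes were at least 83.5% covered in each library, whereas none of 85 cytosolic ribosomal protein genes and none of the 6 MSL complex genes held a peak. The roX1 and roX2 genes were uncovered in all 4 libraries, so the peak lists do not check the deletions.

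Peaks covered far less of the X in knockout than in wild-type males, and the other arms kept most of their coverage. On X the covered share was 6.64%, 6.23%, 2.48% and 1.98%. The difference between the means was −4.21 points, and the knockout libraries held 34.6% of the wild-type coverage. On the large autosomal arms (2L, 2R, 3L and 3R pooled) the share was 12.9%, 12.2%, 11.2% and 9.91%, which is 84.0% of the wild-type level. Both knockout libraries lay below both wild-type libraries on each of the 6 arms, and on X the gap between groups was several times the spread within them.

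Arm by arm, 2L kept 79.4% of its wild-type coverage, 2R kept 88.0%, 3L kept 86.1% and 3R kept 82.9%. Chromosome 4, the small heterochromatin-rich autosome that shares an evolutionary history with the X, stood between these arms and X. It was covered to 18.5%, 17.8%, 13.3% and 11.4%, or 67.9% of the wild-type level. The log2 ratio of X to large-arm coverage was −0.96, −0.98, −2.18 and −2.33, so the X lost coverage relative to the autosomes within each knockout library. With 2 libraries against 2, the exact permutation test (two-sided) gave p = 0.333 for each arm and for this ratio, the smallest value it can give here.

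The autosomal direction depended on scaling. When all lists were shortened to the same total length, keeping the peaks of highest −log10 p, the large arms were covered to 9.17%, 9.18%, 9.86% and 9.91%, slightly higher in the knockout. The X under the same scaling stayed lower at 5.20%, 5.16%, 2.18% and 1.98%. That length is set over all arms together, X included, so a list with less on X keeps more on the other arms. The rise on the large arms under this scaling therefore cannot be told apart from the loss on X.

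**Figure D1:**
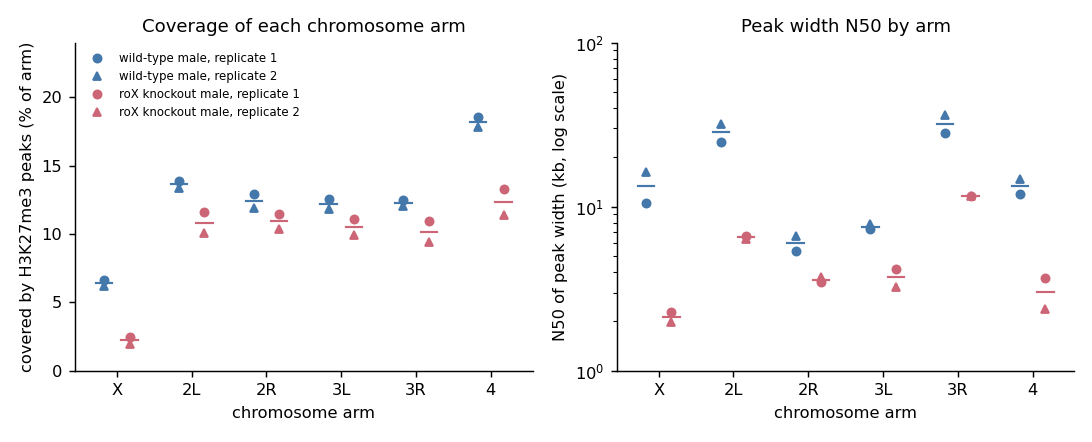
Left, percent of each chromosome arm covered by H3K27me3 peaks in each of the 4 libraries, with group means as bars. Right, the N50 of peak width per arm in kb on a log axis. The 2 knockout points on X, 2.48% and 1.98%, lie below the 2 wild-type points, 6.64% and 6.23%, and the arms 2L to 3R differ less.

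Along X the loss of coverage was not even. Of 10 equal parts of the arm counted from its start, the knockout libraries kept from 11.7% to 38.7% of the wild-type coverage in 8. The exceptions were parts 6 and 10. Part 6 was covered little in any library, at 0.95%, 0.83%, 0.93% and 1.04%, and part 10 was covered to 7.54%, 5.35%, 5.75% and 5.96%. In both the groups overlapped. The large arms, divided in the same way, were uneven too. Part 8 of 2R kept the least, 57.6% of its wild-type coverage, and part 2 of 2R stood highest, at 114.5%.

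The knockout peaks were narrower. The N50, the peak width at or above which 50% of the covered bases lie, was 12.7, 16.8, 4.82 and 4.39 kb over the 6 arms, with no overlap between the groups. The mean log2 ratio of knockout to wild type was −1.67 (exact permutation test, two-sided, p = 0.333). With peaks of −log10 q of at least 3 only, the same ratio was −0.48, and with lists of equal length it was −2.61.

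Every arm showed this order of the groups. On X the N50 was 10.6, 16.3, 2.27 and 1.97 kb, and on 2L it was 24.9, 32.0, 6.65 and 6.39 kb. On 3R, the arm of both Hox clusters, it was 28.0, 36.2, 11.6 and 11.7 kb. The arm 2R had the narrowest wild-type peaks and the smallest contrast, at 5.38, 6.62, 3.49 and 3.71 kb.

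X and the large arms differed in their counts of wide and narrow peaks. These counts hold no positions, so they do not show whether narrow peaks lie where wide ones were. On X the peaks of 20 to 50 kb numbered 8, 7, 0 and 0 and those of 50 kb or more 4, 6, 0 and 0, and the widest X peak was 95.7, 99.0, 16.0 and 13.1 kb. Narrow X peaks did not become more numerous: those under 1 kb numbered 191, 155, 185 and 195, and the groups overlapped in the total number of X peaks, 443, 367, 375 and 350. On the large arms peaks of 50 kb or more numbered 43, 44, 24 and 17, and their covered length was 3771, 3787, 1616 and 1109 kb. Large-arm peaks under 1 kb numbered 2131, 1885, 2813 and 2977, more in both knockout libraries.

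**Figure D2:**
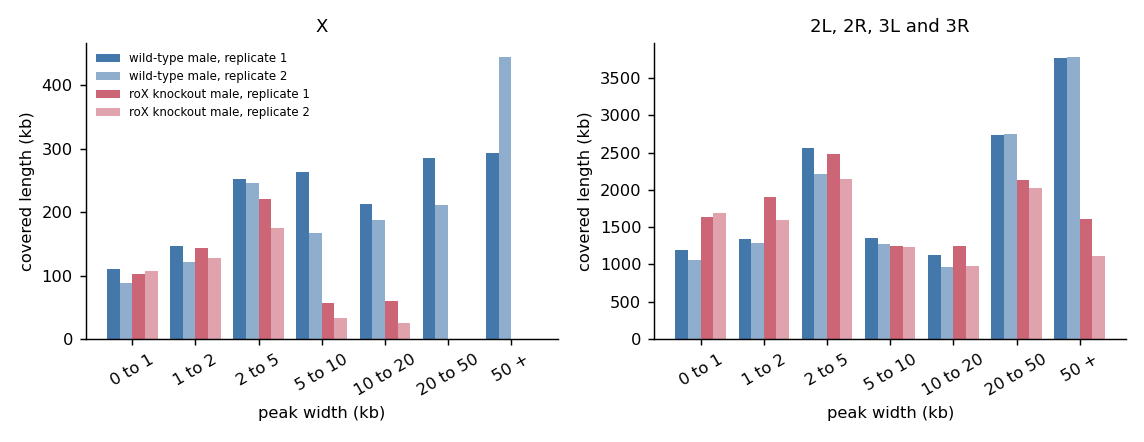
Covered length in kb by class of peak width on X (left) and on 2L, 2R, 3L and 3R together (right), 1 bar per library. On X the classes from 20 kb up are empty in both knockout libraries, and on the large arms the 50 kb class shrank from 3771 and 3787 kb to 1616 and 1109 kb.

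Wide domains of the wild type were then followed in the other libraries. A domain was a merged peak of at least 10 kb in wild-type replicate 1. It was called intact in another library where 1 peak covered at least 80% of it and absent where under 20% was covered. Otherwise it was broken where it held 2 or more peaks and trimmed where it held 1. Wild-type replicate 2, which took no part in choosing the domains, shows what a second library of the same genotype gives.

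Of the 27 X domains, 25 were intact in wild-type replicate 2, 2 in knockout replicate 1 and 1 in knockout replicate 2. In knockout replicate 1, 17 were broken and 8 absent, and in knockout replicate 2, 11 were broken and 15 absent. The median covered share was 99.8% in wild-type replicate 2, 35.9% in knockout replicate 1 and 18.1% in knockout replicate 2. What remained lay in short pieces, with a median of 4 pieces per domain in each knockout library and a longest piece of 3.14 and 2.20 kb at the median, against 17.3 kb in wild-type replicate 2. The same 8 domains were absent in both knockout libraries.

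The 219 domains on the autosomes, chromosome 4 included, were mostly broken and seldom absent. Intact domains numbered 179 in wild-type replicate 2, 63 in knockout replicate 1 and 44 in knockout replicate 2, and broken ones 39, 150 and 161. The median covered share stayed high, at 99.2%, 84.7% and 76.6%. Only 0, 4 and 11 autosomal domains were absent. In both knockout libraries together 135 were broken, 39 intact and 2 absent. The broken autosomal domains taken alone had a median covered share of 76.2% in knockout replicate 1 and 69.1% in knockout replicate 2, and 126 of 150 and 129 of 161 were at least 50% covered. The broken X domains had 39.3% and 37.7%.

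Domains were also chosen in the knockout. Of 191 autosomal domains found in knockout replicate 1, 180 were intact in wild-type replicate 1 and 180 in wild-type replicate 2, while 97 (50.8%) were intact in the second knockout library. Domains of 1 knockout library were thus often divided in the other as well. Of the 5 X domains of knockout replicate 1, 4 were intact in each wild-type library and 2 in knockout replicate 2.

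Coverage of autosomal domains was lower at their edges. In the outermost 10% on either side the mean covered share was 94.3% in wild-type replicate 2, 74.7% in knockout replicate 1 and 65.7% in knockout replicate 2, and at the centre 98.9%, 88.2% and 84.2%. On X the centre itself was largely uncovered, with 99.6% in wild-type replicate 2 and 44.5% and 29.9% in the knockout libraries.

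Domains with a lower fold enrichment kept less. The fold is the authors' own value for each peak of wild-type replicate 1, and it ranked domains within that list only. Split into 3 equal classes of low, middle and high fold, the autosomal domains had a median covered share of 61.8%, 84.2% and 96.1% in knockout replicate 1, and of 44.4%, 73.6% and 93.0% in knockout replicate 2. In wild-type replicate 2 these autosomal classes had 92.0%, 99.5% and 99.8%, so the low class also kept less there. Their median widths were 13.9, 29.2 and 36.7 kb, so fold cannot be told apart from width. The X domains followed the same order of fold, at 26.0%, 34.4% and 49.7% in knockout replicate 1 and 10.1%, 17.9% and 42.5% in knockout replicate 2. Their folds ran from 2.08 to 2.84, and of the 219 autosomal domains 65 lay below that range, 81 within it and 73 above it. The 81 autosomal domains within it, a subset chosen after the data were seen, had a median covered share of 83.7% and 72.0% in the knockout libraries, and none was absent in either. They were also wider, with a median of 28.6 kb against 17.3 kb for the X domains.

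**Figure D3:**
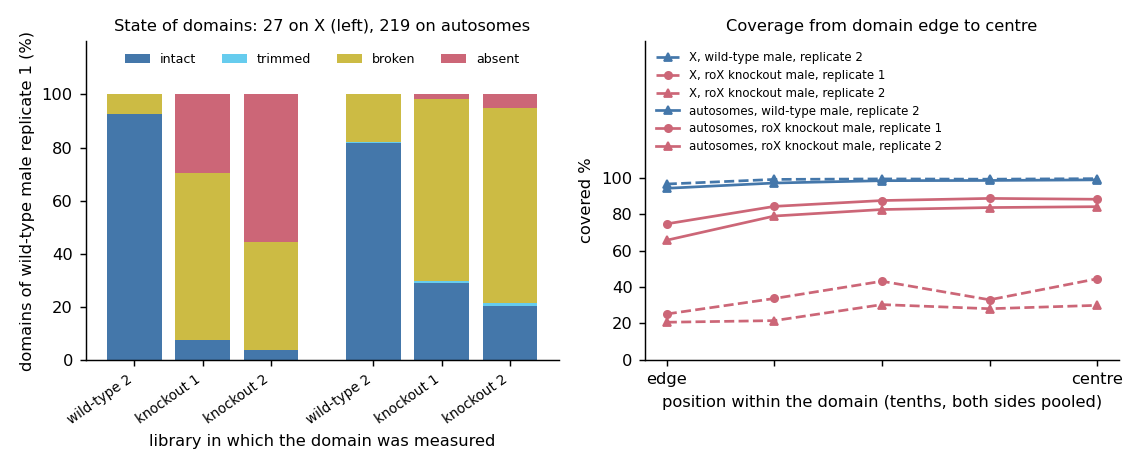
Left, percent of the domains of wild-type replicate 1 that were intact, trimmed, broken or absent in the other 3 libraries, for 27 X domains and 219 autosomal domains. Right, mean covered percent from domain edge to centre, with dashed lines for X and solid lines for autosomes. Absent domains make up 8 and 15 of the 27 on X, against 4 and 11 of the 219 on the autosomes.

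The 5 widest domains broken in both knockout libraries were all autosomal and held classic Polycomb targets. The widest X domain was 95.7 kb, narrower than each of these, so no X domain could rank among them. Of the 27 X domains, 10 were also broken in both knockout libraries. The widest of the 5 broken autosomal domains, at 3R:6822700-7064027 (dm6), spans 241.3 kb with the Hox genes Scr and Antp. It was 1 piece in wild-type replicate 2, and was covered to 94.0% in 9 pieces in knockout replicate 1 and to 91.5% in 19 pieces in knockout replicate 2. The longest pieces there were 71670 and 67990 bp. The domain of abd-A and Abd-B at 3R:16762507-16984847, the posterior Hox genes, was likewise covered to 96.2% in 7 pieces and 94.4% in 8.

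The other 3 held pairs of paralogous transcription factor genes on 2L. The domain of salm and salr, zinc finger genes of wing and tracheal patterning, at 2L:11284528-11477544 was the most divided. It held 3 pieces in wild-type replicate 2, 23 in knockout replicate 1 (84.2% covered) and 29 in knockout replicate 2 (77.0% covered). The T-box genes H15 and mid, at 2L:5366357-5517928, kept 96.3% in 5 pieces and 93.6% in 8. The POU genes nub and pdm2, at 2L:12566574-12690091, kept 93.8% in 6 pieces and 92.8% in 7.

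The 5 widest domains absent from both knockout libraries were all on X. They include the Bar homeobox locus, whose paired genes B-H1 and B-H2 specify eye, leg and bristle cells. The B-H1 domain at X:17369532-17412992 spans 43.5 kb and kept 9.46% and 4.80%. The neighbouring domain at X:17334535-17368533, with no coding gene, kept 3.73% and 2.15%, and the B-H2 domain at X:17306570-17323340 kept 13.4% and 4.51%. The B-H2 domain was already broken in wild-type replicate 2. The others were a domain of 42.2 kb with no coding gene at X:4575071-4617223, which kept 12.6% and 9.0%, and that of the zinc finger gene disco-r at X:16126821-16166931, which kept 17.9% and 16.8%.

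Exceptions lay on both sides. A single X domain, of 11.3 kb over the mucin gene Muc14A, was intact in both knockout libraries at 93.2% and 93.1%. The 2 autosomal domains absent in both knockout libraries both lay in hth on 3R. The widest autosomal domain that stayed intact in both was that of Ubx, at 3R:16655586-16756300, covered to 98.8% and 97.3% over 100.7 kb. These were named after their values were seen.

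Gene bodies were compared next, by limma on the percent of each body covered, with Benjamini-Hochberg adjustment over all 2551 genes tested and calls at an adjusted p under 0.05. In the knockout 85 genes were lower (3.33% of those tested) and 11 higher (0.431%). On X 21 of 158 tested genes were lower (13.3%) and 4 higher (2.53%), and on the large arms 64 of 2370 were lower (2.70%) and 7 higher (0.295%). No gene of chromosome 4 was called among the 23 tested. With lists of equal length the split was 47 lower and 33 higher. Of these, 17 and 5 were on X and 30 and 28 on the large arms. The excess of lower calls held on X and not on the large arms. As these lists share a common total over all arms, the large-arm split cannot be told apart from the loss on X. With peaks of −log10 q of at least 3, X had 31 lower (36.9%) and 6 higher of 84 tested. The large arms then had 140 lower (20.1%) and 7 higher of 695, so X and the large arms differed less in the share of lower genes.

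All of a gene's knockout values lay below all of its wild-type values in 684 genes (26.8%) and above them in 249 (9.76%). On chromosome 4 the counts were 9 and 1 of 23. With 2 libraries a group, limma calls favour genes whose replicates nearly coincide, so a call marks agreement between replicates as much as size. Leaving out a library raised the count of lower genes, to 274 and 309 without wild-type replicates 1 and 2 and to 264 and 217 without knockout replicates 1 and 2. Higher genes numbered 257 and 495 when knockout replicate 1 or 2 was left out.

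Fully covered genes often became partly covered. Of 484 genes over 80% covered in the wild-type mean, 263 (54.3%) stayed over 80% in the knockout mean, 101 lay between 50% and 80%, 69 between 20% and 50% and 26 (5.37%) had no coverage. The loss again differed by arm: the 36 such genes on X had a median of 100% in the wild type and 35.5% in the knockout, and the 444 on the large arms 100% and 88.9%. Of these, 12 and 31 were called lower.

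Partly covered genes, 20% to 80% covered in the wild-type mean, lost proportionally more. Their number was 549, and their median was 41.0% in the wild type and 11.7% in the knockout. Of these, 191 (34.8%) were at 0 in both knockout libraries. On X the median of 41 such genes was 45.6% in the wild type and 0% in the knockout, with 23 (56.1%) at 0, and on the large arms the median of 504 was 40.8% and 12.6%. In all, 38 partly covered genes were called lower and 1 higher. These genes and the fully covered ones were grouped by their wild-type values, so part of a lower knockout median can follow from that choice.

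**Figure D4:**
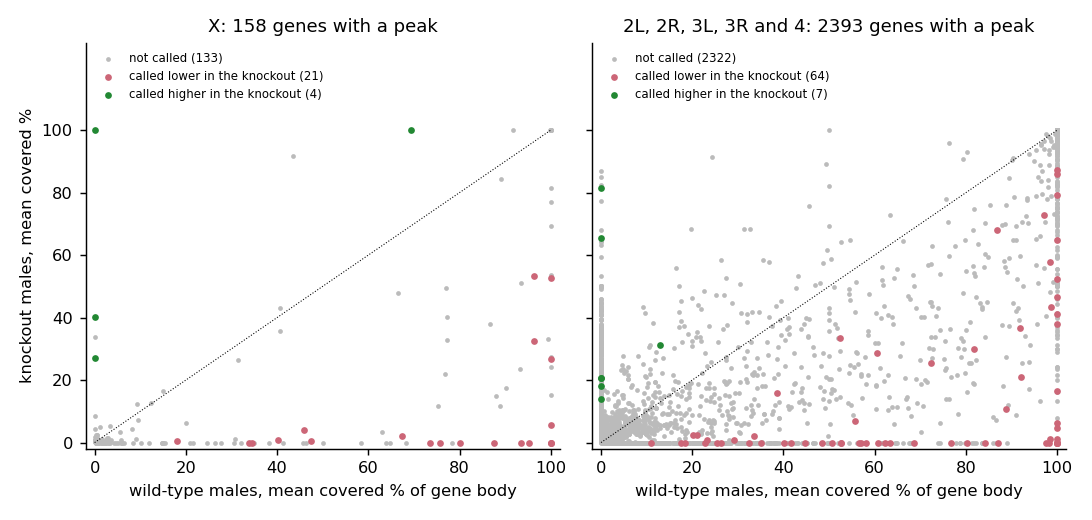
Mean covered percent of each gene body in wild-type (x axis) and knockout males (y axis) for 158 genes on X (left) and 2393 genes on the autosomes (right). Genes called by limma are coloured, with 21 lower and 4 higher on X, and the dotted line marks equal values. Many X genes near 100% in the wild type lie far below the line, and most autosomal ones stay near the top.

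Among genes of at least 2 kb called lower, the 10 largest falls included 6 on X, skipping genes within 10 kb of one taken. Genes that were not called did not enter, among them Sp1 on X at −77.2 points. The X holds a cluster of chorion genes, which encode eggshell proteins. Here Cp7Fa (X:8470888-8473087) was covered to 100%, 100%, 0% and 0%, a change of −100 points (SE 0.681, limma adjusted p = 0.0012). The small SE reflects replicates that coincide at both ends of the scale. The gene otu, required in the female germline for oogenesis, lies nearby at X:8485008-8489535 and was covered to 100%, 90.6%, 0% and 0% (SE 4.21, limma adjusted p = 0.0242). Between them, Cp36 was covered to 89.4%, 85.6%, 0% and 0% (limma adjusted p = 0.0076). Cp38 at 100%, 100%, 48.4% and 0% was not called (limma adjusted p = 0.279), as its knockout replicates differed. These neighbours and CG33223, which spans Cp7Fa, lie side by side or overlap and are not separate observations.

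Developmental regulators on X fell over long bodies. Lim1, a LIM homeobox gene of leg and antenna patterning (X:8756539-8805804, 49.3 kb), was covered to 100%, 100%, 32.0% and 21.6%. It fell by 73.2 points (SE 4.63, limma adjusted p = 0.0400). The T-box gene bi, also known as optomotor-blind (X:4412856-4485647), was covered to 96.3%, 96.4%, 34.7% and 30.1%. It fell by 63.9 points (SE 2.16, limma adjusted p = 0.0157). In both genes the wild-type values lay near the top of the scale, far above both knockout values. The cytokine gene upd3, a JAK/STAT ligand (X:18277233-18284596), was covered to 68.5%, 78.4%, 0% and 0% (SE 4.41, limma adjusted p = 0.0375). Its difference of −73.5 points shrank to −22.5 with lists of equal length and to −16.6 with peaks of −log10 q of at least 3. The gene CG3546, near bi at X:4558072-4560317, was covered to 100%, 100%, 11.4% and 0% (limma adjusted p = 0.0328), a difference of −94.3 points that was −50.0 with the latter filter.

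The autosomal genes among the largest called falls were CG5819 on 2R, CG9626 on 3R, rempA on 2L and mthl8 on 3L. CG5819 was covered to 100%, 100%, 18.7% and 14.6% (limma adjusted p = 0.0090). CG9626 was covered to 83.2%, 94.3%, 8.53% and 12.9% (limma adjusted p = 0.0438). The intraflagellar transport gene rempA was covered to 71.3%, 65.98%, 0% and 0% (limma adjusted p = 0.0161). All 4 were separated widely between the groups, which the calls and the ranking select for. The last, mthl8, of the methuselah-like receptor family, was covered to 56.2%, 57.9%, 0% and 0% (limma adjusted p = 0.0064). With peaks of −log10 q of at least 3 the differences for CG9626 and rempA were 0, and with lists of equal length that for rempA was −33.0 points in place of −68.6.

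Of the 10 called partly covered genes with the largest falls in covered bases, 5 were on X, among them upd3. Cph, a zinc finger gene of neural stem cell timing on X, spans 104.2 kb and lost 43.7 kb of its coverage. It was covered to 46.4%, 45.3%, 5.27% and 2.64% (limma adjusted p = 0.0157). The homeobox gene ct, which specifies external sensory organs, lies on X and was covered to 48.0%, 47.0%, 0.90% and 0% (limma adjusted p = 0.0067). The NK homeobox gene vnd of the ventral nerve cord, also on X, was covered to 39.8%, 40.6%, 1.87% and 0% (limma adjusted p = 0.0120). Each of these X genes had close replicates in both groups, which the calls favour. The difference for vnd was 0 both with lists of equal length and with peaks of −log10 q of at least 3, and that for ct was −32.4 and −32.3 points in turn. CG33223 went from 66.6% and 68.3% to 3.92% and 0% (limma adjusted p = 0.0132).

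On the autosomes the rule named chinmo, bab2, drl, how and fus. The temporal identity gene chinmo (2L) was covered to 22.1%, 24.3%, 1.83% and 0% (limma adjusted p = 0.0401). The limb patterning gene bab2 (3L) kept the most, at 60.4%, 60.5%, 31.2% and 26.4% (limma adjusted p = 0.0463). The Wnt receptor gene drl (2L) was covered to 58.6%, 52.8%, 9.46% and 4.10% (limma adjusted p = 0.0481), but was higher in the knockout by 4.45 points with lists of equal length. The RNA-binding genes how (3R) and fus (2R) started lower. For how the values were 19.99%, 20.2%, 1.07% and 3.52% (limma adjusted p = 0.0474), with a difference of +1.76 points under equal length. For fus they were 30.6%, 27.5%, 0% and 1.36% (limma adjusted p = 0.0368). With peaks of −log10 q of at least 3 the differences for drl and how were 0, and that for fus was −9.37 points in place of −28.4.

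**Figure D5:**
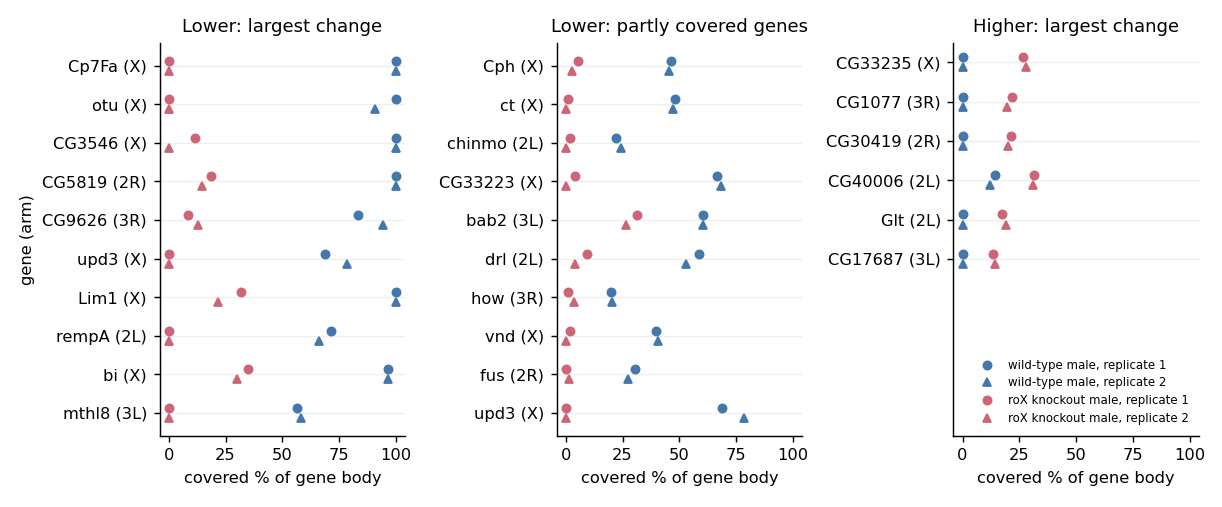
Covered percent of the gene body in each library, for genes called by limma only and skipping genes within 10 kb of one taken. The left panel holds the genes of at least 2 kb with the largest falls. The middle holds the partly covered genes with the largest falls in covered bases, and the right the genes of at least 2 kb with the largest rises. Circles are replicate 1 and triangles replicate 2. Falls reach from 100% to 0% at Cp7Fa, and the rises start at 0% in 5 of the 6 genes and end between 13.4% and 27.7%, with CG40006 starting at 14.1% and 11.9%.

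Among called genes of at least 2 kb, the largest rises were smaller than the largest falls. The 6 genes of at least 2 kb called higher were CG33235 (X), CG1077 (3R), CG30419 (2R), CG40006 (2L), Glt (2L) and CG17687 (3L). CG33235 was covered to 0%, 0%, 26.7% and 27.7% (limma adjusted p = 0.0129). CG30419 was covered to 0%, 0%, 21.2% and 20.1% (limma adjusted p = 0.0211). CG40006, a gene of 133.9 kb near the base of 2L, was covered to 14.1%, 11.9%, 31.4% and 30.9% (limma adjusted p = 0.0414), but differed by −0.23 points with peaks of −log10 q of at least 3. The other 3 had no wild-type coverage and between 13.4% and 21.7% in the knockout. With that filter the differences for CG1077, CG30419, Glt and CG17687 were 0, and that for CG33235 stayed at 27.2 points. With lists of equal length CG1077, CG30419 and CG17687 differed by 9.83, 11.9 and 7.20 points. Glt encodes glutactin, a basement membrane protein.

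The other 5 genes called higher are shorter than 2 kb. They were CG15873 (2R) at 0%, 0%, 80.5% and 82.6%, CG31008 (3R) at 0%, 0%, 62.0% and 68.8%, and 3 Stellate genes on X, all named after their values were seen. Stellate genes are repeated copies that encode a testis protein kinase subunit, and reads from near-identical copies may be split among them, so their values are uncertain. Ste:CG33243 was covered to 0%, 0%, 100% and 100%, Ste:CG33242 to 69.9%, 69.0%, 100% and 100%, and Ste:CG33238 to 0%, 0%, 42.1% and 38.4%.

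Gene families were described by counts and medians of their members in the gene table, beside all 2551 tested genes, whose median was 9.70% in the wild type and 7.82% in the knockout. Of all tested genes 3.33% were called lower and 0.431% higher. A gene is termed separate where all values of 1 group lie beyond those of the other, which held for 26.8% downward and 9.76% upward. Families of broadly covered developmental regulators differed in how much they kept. No Hox gene of 8 was called, and the median was 100% in the wild type and 98.5% in the knockout. Antp was covered to 100%, 100%, 91.1% and 90.3% (limma adjusted p = 0.0581). The median of 7 LIM homeobox genes was 96.4% and 65.3%, with 1 called lower, Lim1. Lim3 on 2L was covered to 69.6%, 76.0%, 36.8% and 22.9%, and Awh on 3L to 100%, 100%, 70.9% and 59.7%, neither called.

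Of 8 T-box genes 1 was called lower, bi, and the median was 100% in both groups. Of 10 Pax genes none was called, with medians of 100% and 98.0%. The 3 Pax genes on chromosome 4, sv, toy and ey, were each lower in both knockout libraries, and sv was covered to 87.1%, 80.6%, 61.6% and 51.0%. Of 11 NK and related homeobox genes 1 was called lower, vnd, and the medians were 100% and 100%.

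Among 35 other homeobox patterning genes, 31 held a peak and 3 fell, namely ct, exex and hth. The difference for exex was −14.2 points, and −6.71 with gaps of up to 1 kb joined. The medians were 100% and 93.1%, and 15 genes had separate groups, all lower in the knockout, against 26.8% of all tested genes in that direction. A gene at 100% in the wild type cannot be separate upward. All tested genes had a wild-type median of 9.70%, so their share is not a like background for this list. The gene hth, a TALE homeobox cofactor of Hox proteins on 3R, was covered to 91.7%, 92.1%, 40.4% and 32.8% (limma adjusted p = 0.0396). B-H1 on X showed a larger difference, at 100%, 100%, 37.7% and 17.2%, but was not called because its knockout replicates lay apart (limma adjusted p = 0.102). The head gap gene oc on X was covered to 93.6%, 93.4%, 45.2% and 56.6% (limma adjusted p = 0.0986).

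Zinc finger patterning genes with broad wild-type coverage were often lower. Of 35 genes on this list, 32 held a peak, 2 were called lower (Cph and bab2), and in 21 the knockout values all lay below the wild-type values, against 3.33% of all tested genes called lower and 26.8% separate in that direction. The medians were 90.3% and 45.1%. As all tested genes had a wild-type median of 9.70%, their shares are not a like background for this list. The transcription factor gene Sp1 of leg growth, on X, was covered to 87.1%, 90.7%, 21.3% and 2.20% (limma adjusted p = 0.0898). Its X-linked fellow disco-r was covered to 90.9%, 89.6%, 24.6% and 10.4% (limma adjusted p = 0.0630). The list also holds the gap gene gt, a leucine zipper factor on X, which was covered to 94.6%, 42.0%, 0% and 0% and was not called. With lists of equal length 15 members were separate in the lower direction and 3 in the higher.

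Of 8 Sox genes 1 fell, D, a regulator of segmentation and neural development, at 100%, 100%, 87.1% and 87.1% (limma adjusted p = 0.0316). Its difference of −12.9 points was −6.46 with gaps of up to 1 kb joined. The medians were 95.5% and 76.0%. No member was called among 5 POU, 12 forkhead, 5 GATA, 4 Runt-domain and 20 bHLH genes. The forkhead medians were 98.8% and 86.3%, the GATA medians 98.1% and 92.3% and the POU medians 79.8% and 64.7%. The Runt-domain gene lz, an X-linked regulator of eye and blood cells, was covered to 93.8%, 92.6%, 31.7% and 15.6% (limma adjusted p = 0.0781).

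Signalling genes were listed as ligands and receptors. Of 32 ligand genes 21 held a peak, and 3 fell: upd3, upd1 and Wnt4. The JAK/STAT ligand gene upd1, on X near upd3, was covered to 100%, 100%, 53.0% and 52.1% (limma adjusted p = 0.0060). Wnt4 was covered to 52.2%, 52.5%, 33.9% and 32.9% (limma adjusted p = 0.0243), but was higher in the knockout by 9.62 points with lists of equal length. The Notch ligand gene Ser on 3R was covered to 77.3%, 76.1%, 26.0% and 15.9% (limma adjusted p = 0.0573). The ligand medians were 13.9% and 1.97%. Of 21 genes for receptors of these ligands 9 held a peak and none was called.

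The E(spl) complex on 3R holds target genes of Notch signalling. Of its 11 genes 9 held a peak, 4 were separate in the lower direction and none was called. The share of all tested genes separate in that direction was 26.8%. The medians were 40.2% and 0%, and all 9 were at 0 in knockout replicate 2. With lists of equal length 6 of the genes held a peak and the median difference was 0. E(spl)m3-HLH was covered to 65.9%, 82.5%, 0% and 0% (limma adjusted p = 0.0739). Of 19 Polycomb group genes 3 held a peak, jing, Psc and Su(z)2, and none was called.

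Lists of terminal and cell-type genes were sparsely covered. Of 16 female germline genes 8 held a peak and 2 fell, Cp36 and otu. Of 20 male germline genes 8 held a peak and none was called. Of 9 fat body genes 2 held a peak, and the larval serum gene Fbp1 at 100%, 100%, 68.6% and 0% was not called. A peak lay in 2 of 10 glue genes and 7 of 33 midgut serine protease genes, with no call. Of 122 cuticle protein genes 31 held a peak and Cpr35B fell, of 23 Osiris genes 9 did and Osi21 fell, and of 84 cytochrome P450 genes 13 did and Cyp4c3 fell. Over all tested genes 3.33% were called lower, so a single call is no result about its list. Cyp4c3 differed by −35.1 points, and by −66.1 with peaks of −log10 q of at least 3. Osi21, at the edge of the salm domain, was covered to 85.4%, 88.5%, 0% and 0% (limma adjusted p = 0.0064).

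Chemosensory genes showed 1 call, beside 3.33% of all tested genes called lower. Of 60 ionotropic receptor genes 19 held a peak and Ir94h fell, from 100% and 96.2% to 0% and 0% (limma adjusted p = 0.0064). Its difference was 0 with lists of equal length and with peaks of −log10 q of at least 3. Of 60 gustatory receptor genes 8 held a peak, of 59 odorant receptor genes 12, and of 29 pickpocket channel genes 12, with no call. Immunoglobulin adhesion genes of neuronal wiring were the lists with more members separate upward than downward. Of 32 dpr and DIP genes 20 held a peak, with 7 separate in the higher direction and 2 in the lower. Of 22 beat and side genes 17 held a peak, with 6 and 0 in turn, and no gene of either list was called. Over all tested genes 9.76% were separate in the higher direction and 26.8% in the lower. Levels were low, as for beat-IIa at 1.91%, 2.25%, 8.68% and 7.41% (limma adjusted p = 0.129). With peaks of −log10 q of at least 3 none of these was separate upward.

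Windows of 10 kb gave the same comparison without gene boundaries. In the knockout 193 of 6099 tested windows were lower (3.16%) and 22 higher (0.361%) by limma at an adjusted p under 0.05. On X 71 of 443 were lower (16.0%) and 1 higher, and on the large arms 122 of 5589 were lower (2.18%) and 21 higher. None of the 67 tested windows of chromosome 4 was called, although in 34 the knockout values all lay below the wild-type values. Such windows numbered 1775 over the 6 arms (29.1%), with 769 in the opposite direction (12.6%). With lists of equal length the split was 176 lower and 132 higher, 66 and 10 on X and 109 and 121 on the large arms. With peaks of −log10 q of at least 3, X had 100 lower (39.4%) and 6 higher of 254 tested. The large arms then had 298 lower (16.5%) and 18 higher of 1802. Leaving out either wild-type library left no window called, although 831 and 1000 were lower at an unadjusted p under 0.05 and 207 and 173 higher. Leaving out knockout replicate 1 gave 628 lower and 804 higher, and leaving out knockout replicate 2 gave 530 and 1111.

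Windows over 80% covered in the wild-type mean repeat the contrast of the arms. The 85 on X had a median of 24.7% and 16.6% in the knockout libraries, and the 739 on the large arms 90.4% and 86.8%. The 12 on chromosome 4 had 86.4% and 70.9%. Windows emptied entirely, covered in both wild-type libraries and at 0 in both knockout libraries, numbered 290, of which 84 were on X and 200 on the large arms. The opposite, windows at 0 in both wild-type libraries and covered in both knockout libraries, numbered 380, of which 19 were on X and 360 on the large arms.

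Runs of adjacent lower windows marked whole loci, and 4 of the 5 longest lay on X. The longest, 8 windows at X:17330001-17410000, covers the Bar locus with B-H1. It was covered to 93.4%, 95.5%, 6.73% and 3.52% (largest limma adjusted p of the run 0.0391). The run of 6 windows at 3R:10560001-10620000 lies in hth and was covered to 90.9%, 88.7%, 19.95% and 12.9% (largest limma adjusted p 0.0435). Lim1 held a run of 4 windows at X:8760001-8800000, covered to 100%, 100%, 25.5% and 21.7%. In each run the groups stood far apart and the replicates close together, which the calls themselves select for. Runs of 3 windows lay in bi at X:4450001-4480000, covered to 96.9%, 96.5%, 11.8% and 8.36%, and in Cph at X:7210001-7240000, covered to 80.6%, 82.0%, 1.74% and 0%.

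Higher windows were nearly all single. The only run, 2 windows at 2R:24210001-24230000 over CG30419, was covered to 0%, 0%, 19.2% and 18.4%. The other named windows already held some coverage in the wild type. Those at 2R:2900001-2910000 and 2R:4490001-4500000 were covered to 7.39%, 13.9%, 51.7% and 52.2% and to 15.6%, 14.4%, 56.5% and 55.6%. The window at 3L:23590001-23600000, in the piRNA pathway gene AGO3, was covered to 27.8%, 27.3%, 57.0% and 62.6%. The window at 2R:3830001-3840000 was covered to 34.4%, 35.8%, 60.4% and 63.6%. Of 10 equal parts of each arm, these single windows lay in part 2 of 2R and part 9 of 3L.

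Over the 6 arms, coverage was divided between genes and the space outside them in overlapping proportions. The share of the covered length inside protein-coding gene bodies was 41.2%, 42.2%, 43.4% and 40.6%, with overlapping groups. On X 48.8%, 47.2%, 51.1% and 53.1% of the covered length lay outside every gene of the table, a larger share in both knockout libraries. On chromosome 4 the space outside genes was covered to 29.9%, 29.5%, 15.1% and 12.8% and the coding share of its covered length was 63.8%, 63.2%, 73.0% and 74.5%. These 3 quantities were separate between the groups (exact permutation test, two-sided, p = 0.333 for each).

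Stretches covered in both wild-type libraries and in neither knockout library summed to 2852 kb, and the reverse to 567.5 kb. The lost stretches on X summed to 786.0 kb in 518 pieces and those on the large arms to 2019 kb in 3093. Of the 30 lost stretches of at least 5 kb, 29 were on X. These stretches are unbroken, with no gaps joined. The widest gained one was 3.28 kb, and 37.6 kb of the gained length lay on X.

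Stretches outside every gene were then ranked after gaps of up to 1 kb were joined, so a named stretch may be partly covered in a library. The 5 longest losses were all on X. Of these, 3 lay between B-H2 and B-H1. The first, 21.5 kb at X:17334535-17356034, was covered to 100%, 100%, 0% and 0%. The second, 20.5 kb at X:17357334-17377838, was covered to 95.1%, 100%, 3.23% and 0%, and the third, 18.2 kb at X:17379201-17397394, to 100%, 100%, 5.60% and 3.73%. Together they take up most of the space between the paired Bar genes. A stretch of 12.7 kb at X:9709850-9722557, between the paralogous zinc finger genes btd and Sp1, was covered to 100%, 100%, 4.15% and 0%. One of 12.1 kb at X:8811954-8824019, between Lim1 and CG12075, was covered to 100%, 100%, 6.16% and 8.89%.

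The 5 longest gains after the same joining were all on autosomes. The longest, 4.44 kb at 2R:2900306-2904746 between the coding genes CG41378 and Scp1, was covered to 0%, 16.0%, 100% and 100%. The others were stretches of 3.33 kb at 2L:23100603-23103932, 3.33 kb at 2R:2683150-2686476, 3.28 kb at 3L:26947825-26951099 and 2.96 kb at 2R:1023852-1026806. All 4 were uncovered in both wild-type libraries and between 70.1% and 100% covered in each knockout library. Of 10 equal parts of each arm, the 5 stretches lay in parts 1 and 2 of 2R and part 10 of 2L and 3L. Part 1 of 2R was covered to 18.7%, 15.7%, 15.3% and 16.7%, and part 2 to 18.4%, 14.3%, 18.6% and 18.8%. Part 10 of 2L was covered to 26.6%, 23.4%, 21.5% and 20.5%, and that of 3L to 19.6%, 16.7%, 19.6% and 19.1%. Only part 2 of 2R was higher in both knockout libraries.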

How the data were processed

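H3K27me3 was profiled by chromatin immunoprecipitation and sequencing, and the 4 male peak lists were used. The 3 inputs and the 2 libraries of wild-type females took no part. Per the submitters' processing notes the tools included deepTools 3.5.1, Picard, SAMtools 1.13, Bowtie2 2.4.5 and Trimmomatic 0.39, with dm6 as the build. For the peak caller, name and settings were not given in the sources used here. The authors deposited 1 broad peak list per library, with a score, a fold enrichment (a ratio) and p- and q-values as −log10 for each peak. The lists hold no read counts, so depth and its precision are unknown.

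Peaks were merged per library and the covered percent was computed for gene bodies, for windows of 10 kb and for arms up to the last gene or peak, with coordinates counted from 1. The gene table follows Release 6, the assembly that genome browsers call dm6. Features at 0 in all 4 libraries were left out. Features were tested with limma 3.58.1 (R 4.3.3) on the covered percent with Benjamini-Hochberg adjustment, and library values with exact permutation tests (two-sided) in scipy 1.17.1. The limma step was tested on simulated data with noise of the same size added to every gene. In the real data replicates coincided in some genes and lay far apart in others, which that test did not cover. Groups were taken from the sample titles.

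Named were the genes of at least 2 kb with the largest change among those called (10 per direction). The 10 called partly covered genes with the largest fall in covered bases were named too. Both rules skipped genes within 10 kb of one taken. Further named were the 5 longest runs of called windows and 5 intergenic stretches per direction. The 5 widest broken and absent domains and examples from 33 gene lists were also named. The members and lists were chosen with earlier results of these data known. Of these, 1 gene is not reported here. The alternatives were a −log10 q minimum of 3, a fold minimum of 1.5, lists of equal total length, gaps of 1 kb joined, an arcsine square root scale, a mean coverage of at least 10%, groups apart by at least 20 points, windows of 5 kb, domains of at least 20 kb, the replicate block and each library left out.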

Additional observations from a re-analysis of the deposited data

How the results depend on the processing

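With 2 libraries a group the counts of calls depended on the processing, and the cause was not tested. Against 85 lower and 11 higher genes, peaks with −log10 q of at least 3 gave 172 lower (of 788 tested), lists of equal length 47 lower and 33 higher, the arcsine square root scale 24 higher, and groups apart by at least 20 points 295 and 32 with no p. Leaving out 1 library gave 217 to 309 lower and 8 to 495 higher genes. Against 193 lower and 22 higher windows, the same settings gave 407 lower, 132 higher, 62 higher, and 516 and 47, windows of 5 kb gave 40 higher, counted per 10 kb, and leaving out 1 library gave 0 to 628 lower and 0 to 1111 higher. The replicate numbers were shared by the groups, but with 2 pairs and correlations of −0.0386 over genes and −0.0723 over windows they do not pair the samples. With the replicate number as a block limma called 0 genes and 0 windows, with 264 lower and 47 higher genes and 835 and 192 windows at an unadjusted p under 0.05. Coverage of the large arms turned to +0.709 points with lists of equal length, whose common total includes X. It ranged from −2.68 to −1.34 with a library left out. Coverage of X kept its direction in all alternatives, from −4.46 to −3.96 with a library left out, as did the peak width N50, at a log2 ratio of −1.87 to −1.47. The median covered share of X domains was 3.5% with −log10 q of at least 3. That of autosomal domains was 50.3% under the same filter and 87.7% for domains of at least 20 kb. The differences turned to −0.23 points for CG40006 with that filter, and to +4.45 for drl and +1.76 for how with equal length. Of the 85 lower genes, between 55 and 61 were called again with a library left out and 35 with equal length, where 7 of 63 tested had the opposite sign. Depth, which limits weak and partial peaks, is unknown.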

Other observations

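The 2 homeobox loci with the longest runs of lower windows differ in how their genes were called: hth on 3R was called lower as a gene, while B-H1 on X was not, with 37.7% and 17.2% covered in the knockout replicates and 8 called windows around it.

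Shared peaks were counted between libraries. Of the large-arm peaks of knockout replicate 1, 57.9% met a peak of wild-type replicate 1, 55.0% one of wild-type replicate 2 and 54.4% one of knockout replicate 2. Of those of knockout replicate 2, 63.1% met a peak of wild-type replicate 1, 58.8% one of wild-type replicate 2 and 63.4% one of knockout replicate 1. Of the X peaks of knockout replicate 1, 85.3% met a peak of wild-type replicate 1 and 63.2% one of knockout replicate 2. In the other direction, 40.9% of the X peaks of wild-type replicate 1 met a peak of knockout replicate 1 and 35.9% one of knockout replicate 2. These shares depend on the width and number of peaks in each list and were not tested.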
